A study of Mus musculus with 9 samples.

Results

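Fibroblast growth factor (FGF) signalling was examined through 6 ligand genes (Fgf1, Fgf2, Fgf7, Fgf9, Fgf10 and Fgf18) and the 4 FGF receptor tyrosine kinase genes (Fgfr1 to Fgfr4) in whole mouse uteri. A probe set reads 1 transcript with several short probes, and it was taken for these genes where its annotation named that gene alone. These 10 of 18193 named genes had 23 of the 45037 probe sets on the Affymetrix arrays, 10 for the ligands and 13 for the receptors. Uteri were collected on gestation day (GD) 3.5, with GD 0.5 the day of the vaginal plug, and 3 groups of 3 arrays each were compared. The Mig-6 d/d Erbb2 d/d group, called the double knockout, had both floxed genes deleted by Cre expressed from the Pgr locus (Pgr cre/+), and Mig-6 d/d mice had Mig-6 alone deleted in the same way. Control mice carried floxed Mig-6, or floxed Mig-6 and floxed Erbb2, and the sources used here do not say which of these a given control array held. Pgr-driven Cre acts in cells that express the progesterone receptor, so other uterine cells keep the floxed genes. The mice were of a mixed C57BL/6 and 129P2/OlaHsd background and were mated with C57BL/6 males. The methods give an age of 8 to 12 weeks, where the sample labels give 2 weeks. RNA was pooled from more than 3 mice per genotype. Nothing says that the 3 arrays of a group held different pools, and the spread behind every p-value may then be technical.

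FGF ligands are secreted proteins that bind heparan sulfate and activate receptor tyrosine kinases on nearby cells. The receptors signal through adaptor proteins to RAS and the ERK kinases, a route that they share with the ERBB receptors which MIG-6 restrains. In the mouse uterus around implantation, FGFs made in the stroma are known to act on the receptors of the overlying epithelium and to favour its proliferation. The stromal transcription factor HAND2, which progesterone induces, is known there to hold these ligands down.

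Values are intensities on a linear scale after robust multi-array averaging (RMA), and their median over all probe sets and arrays was 8.07. Of the 23 FGF probe sets, 10 had a mean above that median and 13 at or below it, and signal over background was not judged, so a fold change between such low values is not exact. Fold changes are differences of mean log2 intensity from limma with all 9 arrays in 1 model. Increased or decreased is said of a probe set that changed by more than 1.5-fold with an adjusted p under 0.05 (Benjamini-Hochberg, over all probe sets), and such a change is named a call. For genes with several probe sets, the one of highest mean is meant unless another is named. In whole tissue, fewer cells of a type and less RNA per cell cannot be told apart.

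The libraries were first checked against their labels. Errfi1, the gene symbol of Mig-6, read 76.0, 29.8 and 40.3 in the double knockout, 15.1, 16.0 and 255 in Mig-6 d/d and 454, 564 and 286 in control. The library labelled replicate 3 of Mig-6 d/d thus had an Errfi1 level near control, and the calls that rest on it are given also without it. Erbb2 read 18.3, 9.88 and 18.4 in the double knockout, 46.6, 39.5 and 44.5 in Mig-6 d/d and 29.4, 36.7 and 45.7 in control, with no overlap between the double knockout and the other groups. The sources used here do not place these probes against the deleted exons, and probes outside the deletion would check nothing. Pgr, the progesterone receptor gene and a marker of the uterus, was present in every array. It read 729, 791 and 986 in the double knockout, 873, 798 and 588 in Mig-6 d/d and 1065, 1107 and 1613 in control. Both knockouts lay below control without overlap. The log2 fold changes were -0.74 in Mig-6 d/d (adjusted p = 0.0734) and -0.58 in the double knockout (adjusted p = 0.448, limma), neither called. The knockouts carry Cre in the Pgr locus, and its part in these values was not tested.

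Among the FGF genes, 2 ligands passed the test and no receptor did. Fgf18 rose in Mig-6 d/d against control and fell in double-knockout uteri against Mig-6 d/d, and Fgf7 rose in double-knockout uteri against Mig-6 d/d. Of the 23 FGF probe sets, limma called 1 increased and 0 decreased in Mig-6 d/d against control, where 1.71% of all probe sets were increased and 1.09% decreased. For double-knockout uteri against Mig-6 d/d, 1 was increased and 1 decreased, against 2.38% and 2.75% of all probe sets. In double-knockout uteri against control 0 were called by limma, with 3 at an unadjusted p under 0.05 (7.63% of all probe sets) and 0 by the methods' t-test with the fold limit (1.17% of all probe sets). The calls in that comparison over all probe sets were few, with 0.198% increased and 0.16% decreased. The median log2 fold change of the 23 probe sets was -0.11 in Mig-6 d/d against control, 0.03 in double-knockout uteri against control and 0.09 in double-knockout uteri against Mig-6 d/d, beside -0.02, 0.00 and 0.02 over all probe sets. The comparisons share arrays, so an increase in Mig-6 d/d against control and a decrease in double-knockout uteri against Mig-6 d/d rest in part on the same 3 arrays.

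**Figure D1:**
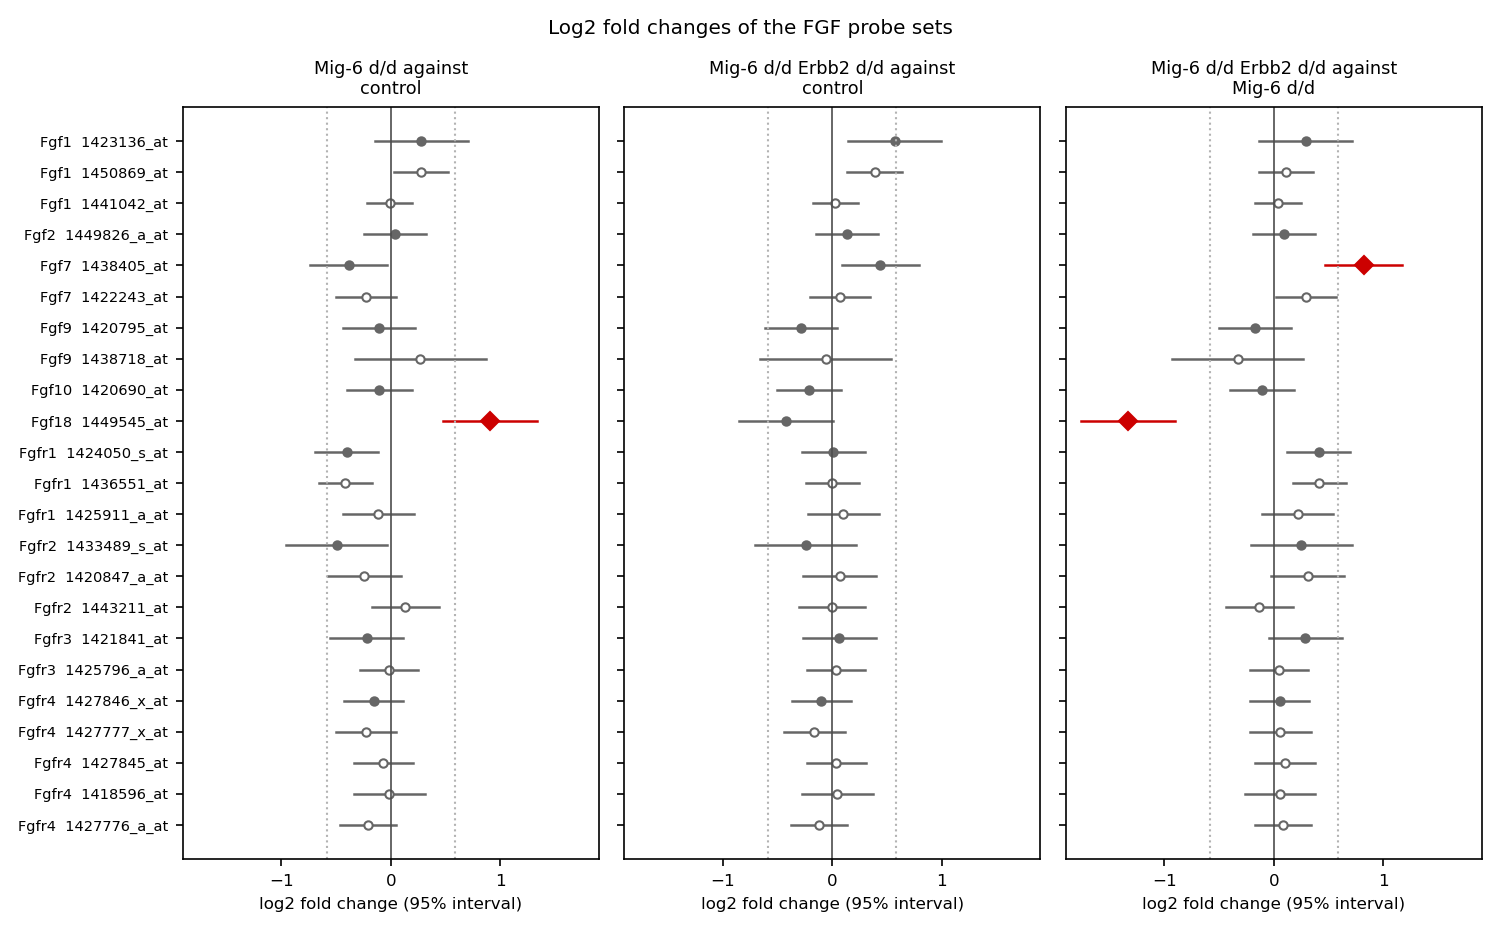
Log2 fold change (points) with its 95% interval from limma (bars) for the 23 FGF probe sets, in 3 comparisons. Red diamonds are called changes, filled symbols the highest-mean probe set of each gene, and dotted lines the 1.5-fold limits. Fgf18 passed in both comparisons with Mig-6 d/d and Fgf7 in the right panel only.

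Fgf18 is a secreted ligand best known from the skeleton and lung, and it had 1 probe set (1449545_at). It read 6.05, 6.66 and 7.08 in the double knockout, 14.1, 20.1 and 16.1 in Mig-6 d/d, and 7.09, 8.09 and 12.03 in control. All 3 Mig-6 d/d arrays were above all 6 others, the library labelled replicate 3 of Mig-6 d/d included, and the double knockout lay just below control with no overlap. Fgf18 in double-knockout uteri against Mig-6 d/d fell by 1.33 on the log2 scale (SE 0.19, 95% interval -1.76 to -0.90, adjusted p = 0.00523, limma). That call was lost among 19 alternatives only by the methods' t-test after Benjamini-Hochberg adjustment (adjusted p = 0.0959), and without the library labelled replicate 3 of Mig-6 d/d the log2 fold change was -1.35 (adjusted p = 0.0202, limma). Against control, Mig-6 d/d uteri had more Fgf18, which rose by 0.91 on the log2 scale (SE 0.19, 95% interval 0.47 to 1.34, adjusted p = 0.0364, limma). This increase was the less firm one, as 11 of 19 alternatives did not call it, among them the comparison with only the 6 arrays of these groups (adjusted p = 0.0855, limma) and 8 of the 9 fits that left out 1 array. Its log2 fold change over those 9 fits was 0.75 to 1.13, and without the library labelled replicate 3 of Mig-6 d/d it was 0.93 (adjusted p = 0.0961, limma). Set against control, double-knockout uteri had an Fgf18 log2 fold change of -0.42 (95% interval -0.86 to 0.01, adjusted p = 0.663, limma), which did not pass the test.

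Fgf7, also called keratinocyte growth factor, is made by stromal cells and acts on epithelial cells through a splice form of FGFR2. Its probe set 1438405_at read 10.9, 10.4 and 13.0 in the double knockout, 6.41, 6.56 and 6.32 in Mig-6 d/d, and 10.9, 7.11 and 7.58 in control. The 3 Mig-6 d/d arrays were the lowest of the 9 and close together, while control replicate 1 stood with the double knockout and the other control arrays between the groups. Fgf7 in double-knockout uteri against Mig-6 d/d rose by 0.82 on the log2 scale (SE 0.16, 95% interval 0.47 to 1.17, adjusted p = 0.0156, limma). The call was lost without Mig-6 d/d replicate 1 (adjusted p = 0.0541), without the library labelled replicate 3 of Mig-6 d/d (log2 fold change 0.81, adjusted p = 0.0522) and without double knockout replicate 3 (adjusted p = 0.0507, limma). The log2 fold change was -0.38 in Mig-6 d/d against control (adjusted p = 0.232) and 0.44 in double-knockout uteri against control (adjusted p = 0.490, limma), and neither passed. The other Fgf7 probe set (1422243_at) read 8.48, 8.03 and 8 in the double knockout, 7.34, 5.49 and 7.31 in Mig-6 d/d and 7.87, 8.17 and 7.34 in control. There the double knockout lay above Mig-6 d/d without overlap, but the log2 fold change of 0.30 was not called (adjusted p = 0.206, limma), and with both probe sets averaged the gene's value of 0.56 stayed under the fold limit.

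The promoters of these 2 ligands are shown because only these members were called. RefSeq windows of 300 bases (GRCm38.p6), from 250 before to 50 after a gene's start, matched 8 of the 10 members with 9 windows, and Fgf1 and Fgfr1 had none there. Both strands were searched for the E-box CANNTG, for the ETS factor core CGGAAG (Etv5 is an ETS factor), for the AP-1 site TGANTCA, for the nuclear receptor half-site AGGTCA, for the GC box written as GGGCGG and for the TATA box written as TATAAA. Capitals mark every match, and no matches overlapped in these windows. The Fgf18 window is at chr11:33147351-33147650 on the minus strand and the Fgf7 window at chr2:126034408-126034707 on the plus strand, and both are written 5′ to 3′ along the gene.
Fgf18: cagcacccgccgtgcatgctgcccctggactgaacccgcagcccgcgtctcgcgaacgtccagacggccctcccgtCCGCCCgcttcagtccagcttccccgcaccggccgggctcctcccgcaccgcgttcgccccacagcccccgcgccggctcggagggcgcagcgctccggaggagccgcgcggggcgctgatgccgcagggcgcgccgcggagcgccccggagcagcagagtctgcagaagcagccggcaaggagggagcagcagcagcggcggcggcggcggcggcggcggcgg
Fgf7: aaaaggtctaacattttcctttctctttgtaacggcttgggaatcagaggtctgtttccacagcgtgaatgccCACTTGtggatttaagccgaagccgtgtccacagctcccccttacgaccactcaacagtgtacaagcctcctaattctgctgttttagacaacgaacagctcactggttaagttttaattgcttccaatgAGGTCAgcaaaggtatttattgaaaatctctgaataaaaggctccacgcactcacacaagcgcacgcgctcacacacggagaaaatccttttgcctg
The Fgf18 window held 78.7% G and C with 47 CpG dinucleotides, and its only match was a GC box 174 bases before the start. The Fgf7 window held 45.7% G and C with 11 CpG dinucleotides, an E-box 177 bases and a half-site 47 bases before the start. Over 32851 such windows the median was 52.7% G and C with 7 CpG dinucleotides. The letters are common, as 72.3% of all windows held an E-box, 35.7% a GC box, 16.9% the ETS core, 16.3% the half-site, 13.6% a TATA box and 7.81% an AP-1 match. The other 7 member windows held 42.7% to 73.0% G and C.

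**Figure D2:**
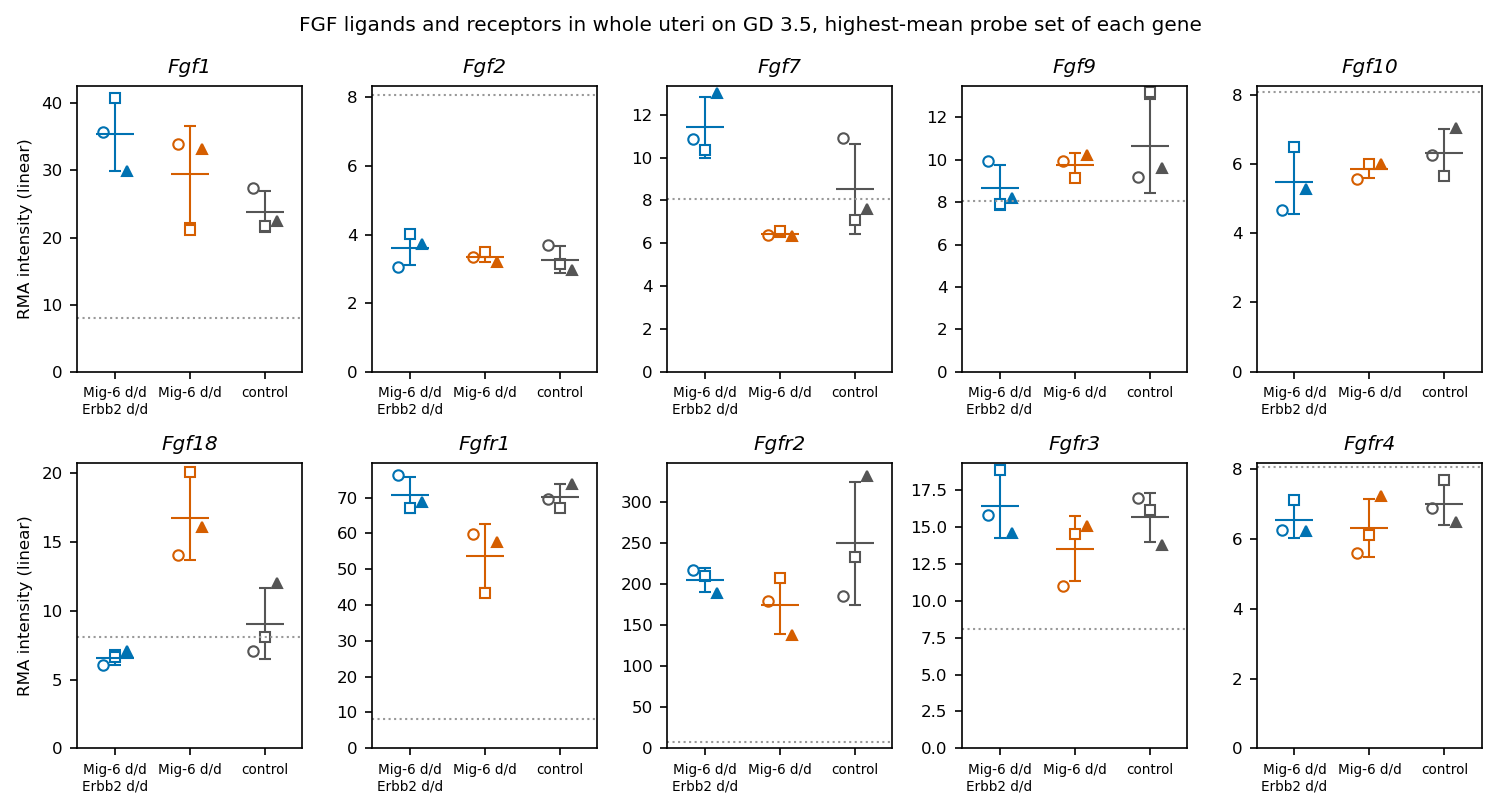
RMA intensity (linear scale from 0) of each FGF gene at its highest-mean probe set, by group. Circles, squares and filled triangles are replicates 1, 2 and 3, horizontal bars with whiskers the group mean ± SD (n = 3 arrays), and the dotted line the median of all values, 8.07; only Fgf18 and Fgf7 had a called change.

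Of the other ligands, Fgf1, which lacks a signal peptide and binds all FGF receptors, had 3 probe sets, and none of them was called. Its brightest probe set (1423136_at) read 35.7, 40.8 and 29.9 in the double knockout, 33.9, 21.1 and 33.1 in Mig-6 d/d and 27.3, 21.7 and 22.4 in control. Each double-knockout array exceeded each control array, while Mig-6 d/d overlapped both groups. The log2 fold change in double-knockout uteri against control was 0.57 (SE 0.19, 95% interval 0.14 to 1.00, adjusted p = 0.442, limma), and it was not called. The second Fgf1 probe set (1450869_at) read 11.3, 11.0 and 10.9 in the double knockout, 11.8, 9.15 and 10.02 in Mig-6 d/d and 7.83, 8.94 and 8.70 in control. Here both knockouts lay above control without overlap, with log2 fold changes of 0.39 in the double knockout (adjusted p = 0.322) and 0.28 in Mig-6 d/d (adjusted p = 0.215, limma), neither called. The dimmest Fgf1 probe set stayed between 4.10 and 4.66 in all arrays.

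Fgf9, a ligand made by mesothelial, epithelial and mesenchymal cells in different organs, read 9.92, 7.93 and 8.21 in the double knockout, 9.93, 9.13 and 10.2 in Mig-6 d/d and 9.17, 13.2 and 9.62 in control. Its groups overlapped, and control replicate 2 was the highest array. The log2 fold change of Fgf9 was -0.11 in Mig-6 d/d against control, -0.28 in double-knockout uteri against control and -0.17 in double-knockout uteri against Mig-6 d/d (adjusted p of 0.597 to 0.780, limma). Its second probe set read 3.46 to 7.37, with overlap in every comparison. Fgf10, a mesenchymal ligand that shares its receptor with Fgf7, read 4.67, 6.49 and 5.27 in the double knockout, 5.55, 6.01 and 6 in Mig-6 d/d and 6.25, 5.65 and 7.03 in control, and all groups overlapped. Fgf2, which like Fgf1 leaves cells without a signal peptide, read 2.97 to 4.03 over all arrays, near the lowest value of the whole table (2.11). Neither Fgf10 nor Fgf2 had a log2 fold change larger than 0.21 in size in any comparison.

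Fgfr1, the receptor that dominates in mesenchymal cells, read 76.4, 67.1 and 68.7 in the double knockout, 59.9, 43.4 and 57.6 in Mig-6 d/d and 69.6, 67.2 and 73.9 in control (1424050_s_at, a probe set whose name marks sequence shared between transcripts). The Mig-6 d/d arrays were the lowest and overlapped neither other group, while the double knockout and control overlapped. The log2 fold change was -0.40 in Mig-6 d/d against control (SE 0.13, 95% interval -0.69 to -0.11, adjusted p = 0.124) and 0.41 in double-knockout uteri against Mig-6 d/d uteri (SE 0.13, adjusted p = 0.0929, limma). The second Fgfr1 probe set (1436551_at) read 9.56, 8.72 and 9.95 in the double knockout, 6.99, 6.45 and 7.77 in Mig-6 d/d and 10.2, 8.64 and 9.41 in control. It showed the same order without overlap, at -0.41 in Mig-6 d/d against control (adjusted p = 0.0694) and 0.41 in double-knockout uteri against Mig-6 d/d (adjusted p = 0.0495, limma), where the change stayed under 1.5-fold and was not called. Without the library labelled replicate 3 of Mig-6 d/d, the adjusted p of that change was 0.0619 (limma). The dimmest probe set (1425911_a_at) read 4.41 to 6.66 and its groups overlapped.

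Fgfr2, the main epithelial receptor and the one that Fgf7 and Fgf10 use, read 217, 209 and 189 in the double knockout, 179, 207 and 138 in Mig-6 d/d and 185, 232 and 331 in control. The name of its probe set (1433489_s_at) also marks sequence shared between transcripts. Control replicate 3 was by far the highest array, and the groups overlapped. The log2 fold change of Fgfr2 was -0.49 in Mig-6 d/d against control (SE 0.21, adjusted p = 0.241), -0.24 in double-knockout uteri against control (adjusted p = 0.876) and 0.25 in double-knockout uteri against Mig-6 d/d (adjusted p = 0.586, limma). Its second probe set (1420847_a_at) read 27.0, 27.1 and 26.6 in the double knockout, 20.0, 27.4 and 18.8 in Mig-6 d/d and 25.8, 22.5 and 29.2 in control, where Mig-6 d/d replicate 2 stood with the double knockout. The dimmest read 3.94 to 5.66.

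Fgfr3, known best as a brake on bone growth, read 15.8, 18.9 and 14.6 in the double knockout, 11.0, 14.5 and 15.1 in Mig-6 d/d and 17.0, 16.2 and 13.8 in control, with overlap between all groups. Fgfr4, the receptor through which the intestinal hormone Fgf15 acts in the liver, was at or below the median of all values at its 5 probe sets, which read 3.10 to 7.70. Its log2 fold changes were -0.22 to 0.10 over the 3 comparisons, and none was called. At their highest-mean probe sets all 4 receptor genes had their lowest group mean in Mig-6 d/d, as had 1 of the 6 ligands (Fgf7). Not all dimmer probe sets of Fgfr2 and Fgfr4 had that order. The order is a description, as no receptor was called and 44.9% of all genes had their lowest mean in that group.

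Marker genes of the tissue's cell types differed between these arrays as well. Of 11 measured epithelial markers, 6 were increased and 0 decreased in Mig-6 d/d against control (median log2 fold change 1.501), and 8 were decreased and 0 increased in double-knockout uteri against Mig-6 d/d (median -1.82). Their summed intensity was 2760 to 3895 in the double knockout, 7945 to 12060 in Mig-6 d/d uteri and 3031 to 5447 in control, highest in Mig-6 d/d as for Fgf18. Of 9 stromal markers 1 was decreased in Mig-6 d/d against control (median -0.42) and 1 increased in double-knockout uteri against Mig-6 d/d (median 0.50), and their sum was 26539 to 27852 in the double knockout, 19652 to 23672 in Mig-6 d/d uteri and 23037 to 27604 in control. Of 8 smooth muscle markers 1 was decreased in Mig-6 d/d against control and 4 were increased in double-knockout uteri against Mig-6 d/d, with sums of 19851 to 24081 in the double knockout, 10944 to 15573 in Mig-6 d/d uteri and 16816 to 21758 in control. Of 8 endothelial markers 2 were decreased in Mig-6 d/d against control and 5 increased in double-knockout uteri against Mig-6 d/d, with sums of 733 to 900 in the double knockout, 473 to 567 in Mig-6 d/d uteri and 797 to 928 in control. The sums of these last 3 lists were lowest in Mig-6 d/d, as the means of Fgf7 and the receptors were, with some overlap with control for stroma only. Without the library labelled replicate 3 of Mig-6 d/d, 1 epithelial marker was increased in Mig-6 d/d against control and 6 were decreased in double-knockout uteri against Mig-6 d/d. In the same fit 0 stromal, 1 smooth muscle and 2 endothelial markers were decreased in Mig-6 d/d against control, and 1 stromal, 2 smooth muscle and 4 endothelial markers were increased in double-knockout uteri against Mig-6 d/d. Over all probe sets that fit called 419 and 1458 in these comparisons, where all arrays together gave 1265 and 2312. The part of these markers in the FGF values was not tested.

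The other genes of FGF signalling were taken from 7 lists, of whose 100 genes 92 were measured outside the members. These lists were chosen with earlier results of these data known, so their counts and medians are a description. In Mig-6 d/d against control, 3 of the 92 were increased and 3 decreased, where 2.54% of all genes were increased and 1.8% decreased. In double-knockout uteri against Mig-6 d/d, 6 were increased and 4 decreased, where the shares were 3.73% and 3.75%. Without the library labelled replicate 3 of Mig-6 d/d these counts were 1 and 1 in Mig-6 d/d against control, and 2 and 2 in double-knockout uteri against Mig-6 d/d. Calls fell over the whole array in that fit. Of all 45037 probe sets, 239 were increased and 180 decreased in the first comparison, and 730 and 728 in the second. With all 9 arrays these were 772 and 493, and 1074 and 1238. Among the 92 genes 0 were called by limma in double-knockout uteri against control, where 0.209% of all genes were increased and 0.198% decreased. At an unadjusted p under 0.05 (limma) there were 9, where 7.63% of all probe sets passed. The methods' t-test with the fold limit gave 0, where 1.17% of all probe sets passed. Over all genes the median log2 fold changes of these comparisons were -0.03, 0.03 and 0.01.

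**Figure D3:**
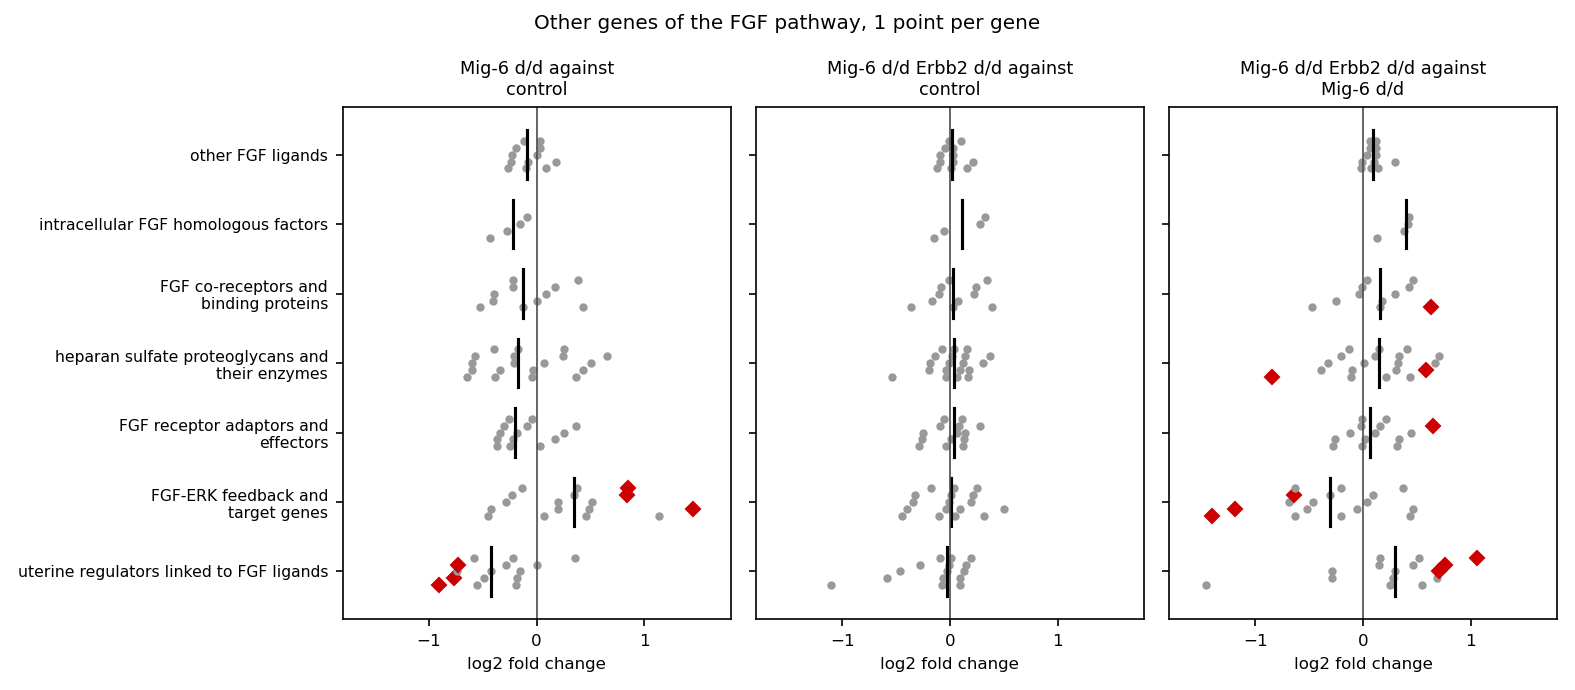
Log2 fold change of the 92 measured genes of 7 FGF pathway lists in 3 comparisons, 1 point per gene, with called genes as red diamonds and the median of each list as a black bar. The feedback list has 12 of 17 genes right of 0 in the left panel (median 0.34). In the right panel 12 lie left of 0 (median -0.30), and the middle panel has no called gene.

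Genes that ERK signalling switches on, which include its own brakes, formed 1 of these lists. Of 17 measured, 3 were increased and 0 decreased in Mig-6 d/d against control (median log2 fold change 0.34), and 3 were decreased and 0 increased in double-knockout uteri against Mig-6 d/d (median -0.30). ERBB receptors feed the same genes, so the list is not particular to FGF. Dusp6, which encodes a phosphatase of ERK, read 140, 134 and 177 in the double knockout, 354, 353 and 484 in Mig-6 d/d and 150, 118 and 168 in control. Every Mig-6 d/d array was above every other array, and the other groups overlapped. Dusp6 rose by 1.45 on the log2 scale in Mig-6 d/d against control (SE 0.17, adjusted p = 0.00764) and fell by 1.40 in double-knockout uteri against Mig-6 d/d uteri (SE 0.17, adjusted p = 0.00297, limma). Etv5, an ETS transcription factor induced by FGF signals in many tissues, read 71.2, 72.5 and 61.4 in the double knockout, 129, 177 and 165 in Mig-6 d/d and 82.5, 80.2 and 97.4 in control. Its groups were separate in the same order as those of Fgf18, with log2 fold changes of 0.85 in Mig-6 d/d against control (SE 0.14, adjusted p = 0.0148) and -1.19 in double-knockout uteri against Mig-6 d/d uteri (SE 0.14, adjusted p = 0.00228, limma).

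Dusp4, a nuclear phosphatase of the same family, read 7.55, 6.34 and 8.28 in the double knockout, 10.9, 9.58 and 14.0 in Mig-6 d/d and 6, 5.42 and 7.79 in control, and rose in Mig-6 d/d against control (log2 fold change 0.84, adjusted p = 0.0337, limma). Ccnd1, a cyclin of cell-cycle entry, read 357, 284 and 246 in the double knockout, 489, 387 and 500 in Mig-6 d/d and 377, 412 and 402 in control. It fell in double-knockout uteri against Mig-6 d/d by 0.64 on the log2 scale (adjusted p = 0.0307, limma). Of 10 alternatives chosen after seeing the data (each array left out in turn, and only the 6 arrays compared), Dusp6 was called in all for both comparisons and Etv5 in all for double-knockout uteri against Mig-6 d/d. The Etv5 call in Mig-6 d/d against control was lost when control replicate 2 was left out and without the library labelled replicate 3 of Mig-6 d/d (log2 fold change 0.81, adjusted p = 0.0577, limma). Dusp4 was not called in 6 and Ccnd1 in 4 of the 10, the library labelled replicate 3 of Mig-6 d/d left out among them (adjusted p = 0.104 and 0.106, limma). Without that library, 1 gene of the list was increased in Mig-6 d/d against control and 2 were decreased in double-knockout uteri against Mig-6 d/d.

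A further list held 15 regulators known to act around FGF ligands in the uterus. Of these genes 3 were decreased and 0 increased in Mig-6 d/d against control (median log2 fold change -0.42), and the same 3 were increased in double-knockout uteri against Mig-6 d/d (median 0.29). Over all genes 1.8% were decreased in the first comparison and 3.73% increased in the second, with medians of -0.03 and 0.03. The stromal markers had medians of -0.42 and 0.50 there. The regulator and stromal lists may share genes, so these medians may not be independent. Whether the changes of this list are particular to FGF was not tested. Nr2f2, a stromal nuclear receptor gene downstream of hedgehog signals, read 658, 564 and 545 in the double knockout, 363, 319 and 361 in Mig-6 d/d and 545, 687 and 554 in control. Its Mig-6 d/d arrays were separate from both other groups, with log2 fold changes of -0.77 in Mig-6 d/d against control (SE 0.12, adjusted p = 0.0137) and 0.76 in double-knockout uteri against Mig-6 d/d uteri (SE 0.12, adjusted p = 0.00796, limma), and the same 10 alternatives all called both. Gli1, a transcription factor gene that hedgehog signals switch on, read 158, 176 and 112 in the double knockout, 59.9, 86.7 and 66.8 in Mig-6 d/d and 117, 162 and 121 in control. Its Mig-6 d/d arrays were again below all others, at -0.91 in Mig-6 d/d against control (adjusted p = 0.0398) and 1.05 in double-knockout uteri against Mig-6 d/d (adjusted p = 0.0148, limma). Twist2, a mesenchymal transcription factor gene, read 289, 246 and 237 in the double knockout, 147, 190 and 138 in Mig-6 d/d and 258, 308 and 223 in control. Its log2 fold changes were -0.73 in Mig-6 d/d against control (adjusted p = 0.0363) and 0.71 in double-knockout uteri against Mig-6 d/d (adjusted p = 0.0257, limma).

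Gli1 and Twist2 were each lost in 6 of the 10 alternatives for Mig-6 d/d against control and in 4 for double-knockout uteri against Mig-6 d/d. Without the library labelled replicate 3 of Mig-6 d/d, Gli1 had adjusted p of 0.119 and 0.0520 and Twist2 of 0.118 and 0.0908 in these comparisons (limma), and 1 gene of the list was called in each. Hand2, named here after its values were seen because of its known role on these ligands, read 364, 398 and 331 in the double knockout, 223, 294 and 248 in Mig-6 d/d and 394, 401 and 345 in control. The Mig-6 d/d arrays were below all others, but the log2 fold changes of -0.58 in Mig-6 d/d against control (adjusted p = 0.0371) and 0.52 in double-knockout uteri against Mig-6 d/d (adjusted p = 0.0366, limma) stayed under 1.5-fold and were not called. Without the library labelled replicate 3 of Mig-6 d/d, the adjusted p of Hand2 was 0.111 and 0.106 in these comparisons (limma).

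The remaining lists had few calls. Of 11 co-receptors and binding proteins, Nrp1, a neuropilin that also serves VEGF, was increased in double-knockout uteri against Mig-6 d/d. It read 403, 421 and 468 in the double knockout, 296, 306 and 238 in Mig-6 d/d and 447, 319 and 349 in control (log2 fold change 0.63, adjusted p = 0.0318, limma). Of 19 heparan sulfate genes, the sulfotransferase gene Hs6st1 was decreased and the syndecan gene Sdc3 increased in the same comparison. Hs6st1 read 28.7, 18.3 and 27.4 in the double knockout, 42.8, 42.7 and 45.3 in Mig-6 d/d and 25.6, 23.1 and 36.1 in control (log2 fold change -0.84, adjusted p = 0.0314, limma). Sdc3 read 118, 98.8 and 94.7 in the double knockout, 71.2, 58.5 and 78.3 in Mig-6 d/d and 89.8, 124 and 101 in control (log2 fold change 0.59, adjusted p = 0.0481, limma). Of 14 adaptors and effectors, Shc1, an adaptor shared by many receptor kinases, was increased there, with 90.6, 79.8 and 99.3 in the double knockout, 74.0, 47.6 and 53.0 in Mig-6 d/d and 67.9, 83.5 and 71.2 in control (log2 fold change 0.65, adjusted p = 0.0446, limma). The double-knockout and Mig-6 d/d arrays did not overlap for any of these 4 genes, which were named for their call in this same comparison. None of them was called in the fit without the library labelled replicate 3 of Mig-6 d/d (adjusted p of 0.0626 to 0.137, limma).

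No other secreted ligand and no intracellular FGF homologous factor was called. The 12 other ligands had median log2 fold changes of -0.09 in Mig-6 d/d against control, 0.02 in double-knockout uteri against control and 0.09 in double-knockout uteri against Mig-6 d/d. Fgf20, which helps to form the cochlea, read 5.48, 6.31 and 6.15 in the double knockout and 4.24, 4.94 and 5.50 in Mig-6 d/d (log2 fold change 0.29, adjusted p = 0.237, limma), and the groups overlapped. Fgf23, the bone hormone of phosphate balance, read 4.16, 4.76 and 4.11 in the double knockout and 3.49, 3.65 and 4.07 in control (log2 fold change 0.22, adjusted p = 0.665, limma), low values that did not overlap. The 4 intracellular factors, which bind ion channels rather than FGF receptors, had median log2 fold changes of -0.22 in Mig-6 d/d against control, 0.11 in double-knockout uteri against control and 0.40 in double-knockout uteri against Mig-6 d/d. Of these, Fgf12 read 5.68, 4.85 and 6.90 in the double knockout and 4.47, 4.48 and 4 in Mig-6 d/d (log2 fold change 0.42, adjusted p = 0.0915, limma). Fgf11 read 7.61, 7.28 and 7.05 in the double knockout and 5.35, 4.83 and 6.17 in Mig-6 d/d (log2 fold change 0.43, adjusted p = 0.0921, limma). Both were higher in every double-knockout array than in every Mig-6 d/d array and neither passed the test.

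Genes with the pattern nearest to that of each called ligand were found as those with the smallest root mean square (RMS) difference over the 9 arrays, after each gene's log2 intensities were centred on their mean. They were chosen for this likeness, so their values are a description. Nearest to Fgf18 were Pax8, a transcription factor gene of the epithelium of the female reproductive tract (RMS difference 0.14), Kctd1 (0.17) and Etv5 (0.18). Pax8 averaged 16.7 ± 2.08 in the double knockout, 38.5 ± 5.97 in Mig-6 d/d and 21.6 ± 5.18 in control, and Kctd1 averaged 60.2 ± 4.35 in the double knockout, 196 ± 45.3 in Mig-6 d/d and 100.1 ± 37.7 in control (SD, n = 3 arrays). Control replicate 3 stood highest of the control arrays for all 3 genes as for Fgf18. Nearest to Fgf7 were the calcineurin regulator Rcan3, the chondroitin sulfate synthase Chsy1 and the imprinted noncoding RNA Rian, each at an RMS difference of 0.13. Rian averaged 169 ± 27.2 in the double knockout, 84.5 ± 11.3 in Mig-6 d/d and 122 ± 39.6 in control (SD, n = 3 arrays), and control replicate 1 was its highest control array, as for Fgf7.

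**Figure D4:**
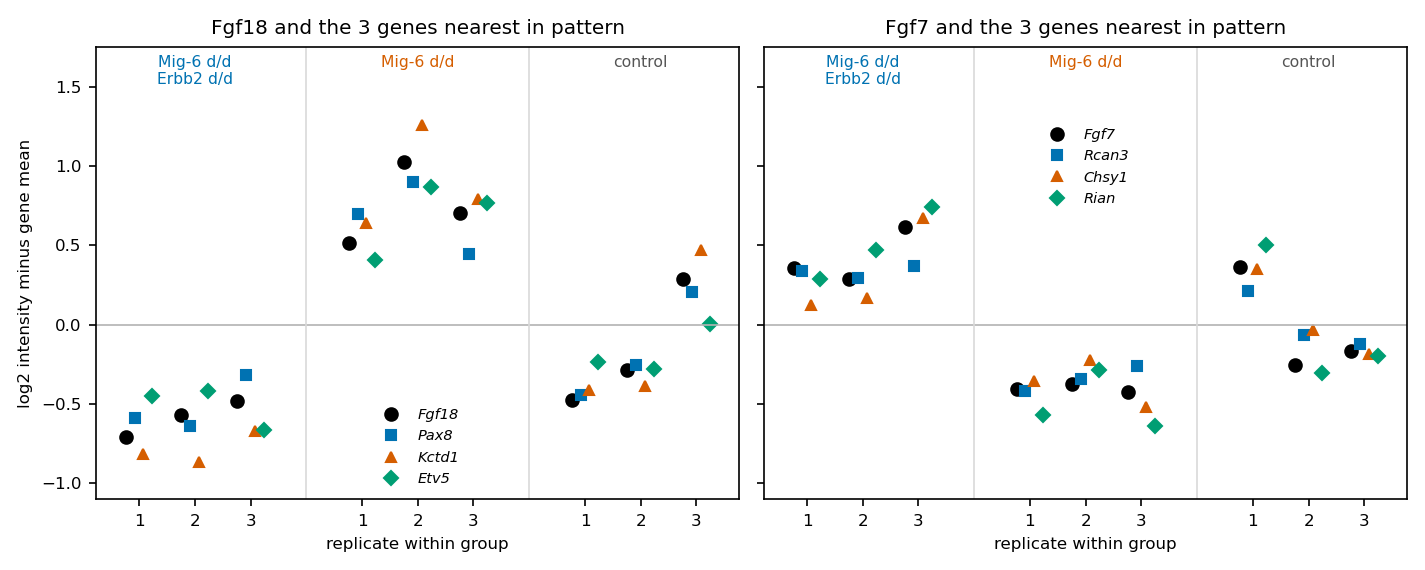
Log2 intensity minus each gene's own mean over 9 arrays, by replicate within group, for Fgf18 (left) and Fgf7 (right) with the 3 genes nearest in pattern. In the left panel the Mig-6 d/d arrays are above all others for Fgf18, Pax8, Kctd1 and Etv5, and in the right panel they are below all others for Fgf7, Rcan3 and Chsy1.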

How the data were processed

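The authors deposited 1 linear intensity per probe set and array, which they computed in Bioconductor by RMA and quantile normalization from Affymetrix mouse genome arrays. Log2 values were computed from these intensities. Signal over background was not judged, and 3 arrays per group limit the precision. No authors' comparison columns were used.

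Groups came from the sample labels. Symbols came from the platform annotation, where 34945 probe sets had 1 symbol, 932 several and 9160 were unnamed here; 34741 matched a RefSeq table by Entrez identifier and 0 changed. Tests used R 4.3.3 and limma 3.58.1 (statmod 1.5.0), with Benjamini-Hochberg adjustment over 45037 probe sets, and were tested on simulated data. The methods name no test for the array comparison, so the methods' t-test here is the two-sided unpaired t-test of their general statistics. That t-test and dim-probe, normalization, variance, threshold, block and left-out-array alternatives were run.

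Named were all member probe sets, up to 6 genes per list (called ones, or the 2 with the smallest p), Errfi1, Erbb2 and Pgr as checks, and the 3 genes nearest in pattern to each called member. The members and lists were chosen with earlier results of these data known. Of the marker lists not described in the report, leukocytes had 1 decreased in Mig-6 d/d against control, ovary and oviduct 1 increased in double-knockout uteri against Mig-6 d/d, and gland, mesothelium and adipocyte 0 calls. The 3 adipocyte markers had median log2 fold changes of -0.81 and 1.45 in these comparisons. Of the 5 gland markers, 4 were lower and 1 higher in each of them (medians -0.17 and -0.25). Figures used Python 3.11.15 and matplotlib 3.10.9.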

Additional observations from a re-analysis of the deposited data

How the results depend on the processing

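The 3 FGF calls had 57 alternative log2 fold changes, of which 40 kept the call and 17 lost it, 12 of Fgf18 and 5 of Fgf7, and none reversed. The other 66 FGF values had 1176, none of which was called at the same thresholds. The 1 FGF call in Mig-6 d/d against control became 0 with only the 6 arrays compared, with array weights, at more than 2-fold and by the methods' t-test after Benjamini-Hochberg adjustment, and was 0 to 1 as each array was left out. The 2 FGF calls in double-knockout uteri against Mig-6 d/d became 3 with no fold limit, 1 at more than 2-fold and 0 by that adjusted t-test, and were 1 to 2 as each array was left out. Against control the double knockout had 0 FGF calls under every alternative run.

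Over all probe sets, 1265 were called in Mig-6 d/d against control, with 612 from only the 6 arrays compared, 434 at more than 2-fold, 0 by the adjusted t-test and 353 to 1762 as each array was left out. In double-knockout uteri against control 161 were called, with 90 from only the 6 arrays, 98 at more than 2-fold, 529 by the unadjusted t-test with the fold limit, 0 by the adjusted one and 86 to 156 as each array was left out. In double-knockout uteri against Mig-6 d/d 2312 were called, with 849 at more than 2-fold, 35 by the adjusted t-test and 1133 to 2545 as each array was left out. The causes of these differences were not tested.

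The replicate numbers are shared between groups by the labels. Deviations of same-numbered arrays correlated at -0.13 to 0.20, and those of differently numbered arrays at -0.30 to 0.33. With so few arrays this cannot decide whether the numbers pair the arrays, and the main fit had no replicate block. With the replicate block there were 1 FGF call in Mig-6 d/d against control, 0 in double-knockout uteri against control and 2 in double-knockout uteri against Mig-6 d/d, and over all probe sets 1451, 134 and 2505. It changed no FGF call. Most FGF genes lay near or below the median intensity, where small changes are not measured well, and of the pathway calls only those of Dusp6 and Nr2f2, and of Etv5 in double-knockout uteri against Mig-6 d/d, held in all fits without 1 array.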
